A study of Arabidopsis thaliana with 20 samples.

Results

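The 10 genes described here, known as markers of the dehydration response in Arabidopsis, were followed across leaves and stomata-enriched epidermal peels of watered and droughted plants. The set holds 6 dehydrins (RAB18 AT5G66400, LTI30 AT3G50970, XERO1 AT3G50980, COR47 AT1G20440, ERD10 AT1G20450 and ERD14 AT1G76180), the pair RD29A AT5G52310 and RD29B AT5G52300, the tryptophan-rich sensory protein TSPO AT2G47770 and the caleosin RD20 AT2G33380. Its members were taken by locus, as the probes whose transcript identifier maps to these loci. They comprised 10 of the 25410 genes and 23 of the 43603 probes of the array. RAB18 was read by 4 probes, COR47 by 3, ERD14 by 6, and ERD10, RD29A and TSPO by 2 each, and the other members by 1.

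Dehydrins are hydrophilic, largely unfolded late embryogenesis abundant (LEA) proteins that accumulate in drying or chilled plant cells and bind membranes and proteins. Many of their genes, like RD29A and RD29B, are switched on by abscisic acid (ABA) through ABRE elements in their promoters, and several also by cold and dehydration through DRE elements that bind CBF and DREB2 factors. Guard cells, which flank the stomatal pore, close it in response to ABA.

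RNA of plants labelled 5 weeks old, for which the treatment notes give an older age, was hybridised to 20 one-colour Agilent arrays. The plants were wild-type Col-0 or bam1, a T-DNA insertion line of BAM1, which encodes a beta-amylase of starch breakdown, and had been watered as controls or held under mild drought for 5 days. Among leaf groups, both control groups and droughted bam1 had 3 arrays each and droughted Col-0 had 2. Among stomatal groups, watered Col-0 had 3 arrays and the other groups had 2 each. The methods describe each stomatal replicate as pooled material of several plants, and bam1 was represented by a single insertion line. The stomatal fraction was an epidermal peel enriched for guard cells rather than a sort of pure cells. The methods describe peels made by removing major veins and blending leaves in ice-cold water with crushed ice. They give no such step for leaf samples. Differences between tissues therefore cannot be told apart from effects of this preparation.

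All 23 probes passed the filter on dim signals, together with 30665 of all probes, so each of the 10 genes was tested. Values are log2 processed signals normalised by quantiles, and a gene stands for its brightest probe unless another is named. A change was called at a limma adjusted p under 0.05 and a difference of at least 2-fold. Per array the median processed signal ranged from 165 to 584, and 63.2% to 75.4% of probes were well above background, with 0 saturated spots. The 9 guard cell markers averaged 9.31 to 9.75 on the log2 scale on leaf arrays and 11.62 to 12.76 on stomatal arrays, which did not overlap. The 4 mesophyll markers averaged 17.69 to 18.45 on leaf arrays and 17.25 to 18.05 on stomatal arrays, so the ranges overlapped. On the array at 17.25, stomata bam1 drought replicate 2, LHCB1.1 was missing after outlier spots were removed, so fewer markers entered the mean. The array at 18.45, leaf Col-0 control replicate 2, had the most outlier spots (318). Whether these transcripts came from mesophyll cells in the peels was not tested.

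BAM1, read to check the genotypes, went against 1 label. On the array with the label stomata Col-0 drought replicate 2 BAM1 had a log2 signal of 7.81, whereas the array labelled replicate 1 of the same group gave 13.47. All other Col-0 arrays lay between 10.90 and 13.97 and all bam1 arrays between 6.45 and 9.71. In each pair of values given below for droughted Col-0 stomata the second comes from this array labelled replicate 2, and the calls and counts that use it are also given without it.

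**Figure D1:**
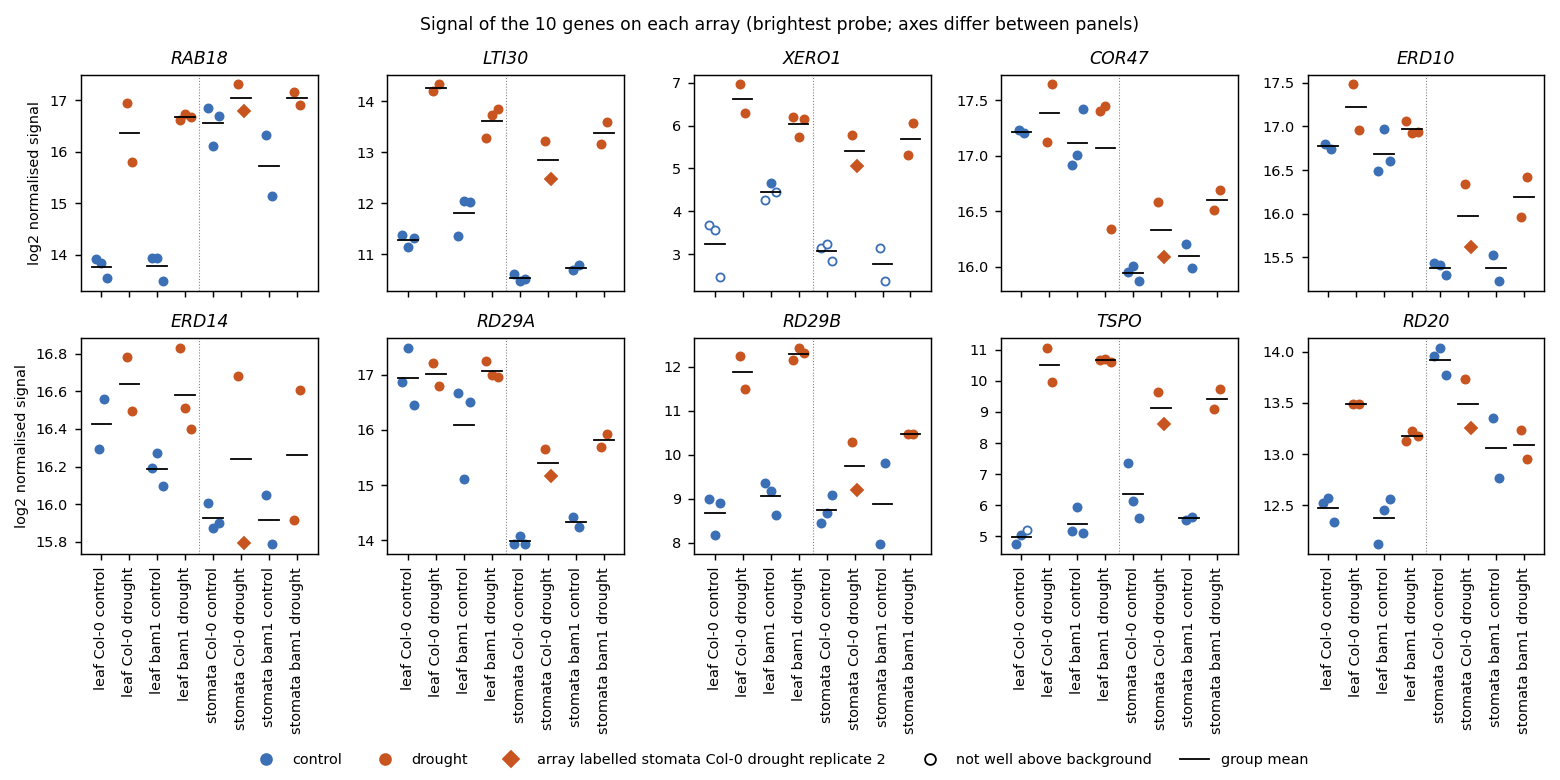
Log2 normalised signal of the brightest probe of each of the 10 genes on every array, in 8 groups of 2 or 3 arrays, with the group mean as a bar, open symbols where the probe was not well above background and a diamond for the array whose BAM1 signal went against its label. LTI30, XERO1 and TSPO stood higher under drought in all 4 pairs of groups without overlap, while RAB18 and RD20 started higher in Col-0 stomata than in Col-0 leaves.

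Drought raised 6 of the 10 genes in Col-0 leaves and lowered 0, where 2.09% of all tested probes were called higher and 3.37% lower. TSPO rose 46.2-fold, RD29B 9.10-fold, XERO1 at least 8.34-fold, LTI30 7.91-fold, RAB18 6.13-fold and RD20 2.02-fold. The median log2 change was 1.81 over the 10 genes and -0.01 over all tested probes. COR47, ERD10, ERD14 and RD29A were not called, with log2 changes of 0.07 to 0.45.

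Among the dehydrins, RAB18, named for its response to ABA, read 13.91, 13.83 and 13.53 on the control leaf arrays of Col-0 and 16.94 and 15.80 under drought. The lowest droughted leaf stood above every control leaf, and the log2 change was 2.62 ± 0.35 (SE, adjusted p 0.000252). LTI30, a membrane-binding dehydrin, read 11.38, 11.15 and 11.32 in controls and 14.20 and 14.33 under drought (log2 change 2.98 ± 0.24, adjusted p 8.09e-06). XERO1, its neighbour on the chromosome, was not well above background on any control leaf array of Col-0, at 3.68, 3.57 and 2.47, and read 6.96 and 6.30 under drought (adjusted p 5.67e-05). Its fold is a lower bound, computed against the dimmest signals that were well above background.

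None of the 3 acidic dehydrins was called (0 of 3). COR47 read 17.23 and 17.20 in control leaves of Col-0 and 17.12 and 17.64 under drought, so the groups overlapped. Its log2 change was 0.16, with a 95% interval of -0.52 to 0.85. ERD10 changed by 0.45 (-0.08 to 0.98) and ERD14 by 0.21 (-0.37 to 0.79). For these 3 genes leaf Col-0 control replicate 2 carried an outlier flag on the brightest probe and was left out of the fit. COR47 and ERD10 lie side by side in the genome and are close relatives, and hybridisation of 1 gene's transcript to the other's probe was not tested.

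RD29A and RD29B, also adjacent genes, encode related hydrophilic proteins. RD29B read 8.99, 8.16 and 8.91 in control leaves of Col-0 and 12.24 and 11.50 under drought, without overlap (log2 change 3.19 ± 0.46, adjusted p 0.000433). RD29A read 16.87, 17.49 and 16.46 in controls and 17.22 and 16.80 under drought, so the droughted values fell inside the control range (log2 change 0.07, 95% interval -0.73 to 0.87). The 17.49 came from control replicate 2, the array with the most outlier spots (318). Before normalisation its RD29A signal of 116140 was below the 146304 of replicate 1. Over 17 alternatives the RD29A change ranged from -0.17 to 0.46 and was called in 0. Its dimmer probe gave 0.84 (adjusted p 0.108).

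TSPO, a membrane protein that binds tetrapyrroles and is induced by ABA, had the largest rise of the set and ranked 4 among the 30665 probes ordered by rise. In control leaves of Col-0 it read 4.73, 5.03 and 5.19, the last not well above background, and under drought 11.07 and 9.96 (log2 change 5.53 ± 0.46, adjusted p 9.4e-06). Its other probe rose 22.9-fold. RD20, a calcium-binding protein of lipid droplets, moved far less, from 12.52, 12.57 and 12.34 to 13.49 and 13.49 (log2 change 1.01 ± 0.19, adjusted p 0.00252), just past the 2-fold limit. Without leaf Col-0 control replicate 3 it fell short of that limit, at 0.94.

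On the only slide that held both a control and a droughted Col-0 leaf, the within-slide log2 differences were 6.33 for TSPO, 3.28 for XERO1, 3.26 for RD29B, 3.03 for RAB18, 2.82 for LTI30 and 0.97 for RD20. Of the guard cell markers 1 of 9 was called higher in this comparison, GORK, with a median log2 change of -0.17 over the list, and 1 of 6 epidermis markers, PDF1, was called lower (-1.81). In bulk tissue a change in the number of cells of a type and a change in RNA per cell cannot be told apart.

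In leaves of bam1, 5 of the 10 genes rose and 0 fell (1.43% of all tested probes were called higher and 3.44% lower). TSPO rose 38.3-fold, RD29B 9.46-fold, RAB18 7.43-fold, LTI30 3.52-fold and XERO1 2.98-fold. The median log2 change was 1.27 over the 10 genes and 0.01 over all tested probes. TSPO read 5.16, 5.94 and 5.12 in controls and 10.69, 10.69 and 10.61 under drought. RAB18 read 13.94, 13.94 and 13.48 in controls and 16.62, 16.73 and 16.68 under drought. In both genes every droughted leaf stood above every control leaf. XERO1 was well above background on 1 of the 3 control arrays, at 4.26, 4.66 and 4.46, and its rise to 6.20, 5.73 and 6.16 had a log2 size of 1.57 ± 0.33 (adjusted p 0.0058).

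RD20 rose in bam1 leaves by 0.80 ± 0.17 on the log2 scale (adjusted p 0.00583), which passed the p threshold but was under 2-fold. RD29A changed by 0.97 ± 0.34 (adjusted p 0.0701). Its control arrays were wide, at 16.67, 15.11 and 16.51, against 17.25, 17.00 and 16.97 under drought. Without leaf bam1 control replicate 1 the change was 1.26 and was called (adjusted p 0.0335), and without the low replicate 2 it was 0.48. COR47 (-0.05), ERD10 (0.29) and ERD14 (0.40) were again not called. On the single slide with both groups, the within-slide log2 differences were 5.49 for TSPO, 3.68 for RD29B, 3.20 for RAB18, 1.83 for LTI30 and 1.70 for XERO1. Of the cell type markers PDF1 of the epidermis (-1.44) and XCP1 of the xylem (-1.34) were called lower in bam1 leaves, and their part was not tested.

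In stomata of Col-0 drought raised 4 of the 10 genes and lowered 0 (1.78% of all tested probes were called higher and 1.62% lower). TSPO rose 6.81-fold, XERO1 at least 5.07-fold, LTI30 5.00-fold and RD29A 2.67-fold, with a median log2 change of 0.80 over the 10 genes and 0.02 over all tested probes. RAB18, RD29B and RD20, which rose in Col-0 leaves, were not called here. Of all the calls in this comparison 52.3% were higher, and 37.3% with arrays scaled by their 75th percentile, a scaling under which the same number of members was called.

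TSPO read 7.34, 6.14 and 5.59 on the control arrays of Col-0 stomata and 9.65 and 8.60 under drought, without overlap (log2 change 2.77 ± 0.46, adjusted p 0.00241). LTI30 read 10.61, 10.48 and 10.51 in controls and 13.23 and 12.48 under drought (2.32 ± 0.24, adjusted p 0.000103). XERO1 was not well above background on the control arrays, at 3.16, 3.23 and 2.84, and read 5.78 and 5.06 under drought (adjusted p 0.00179). The droughted array labelled replicate 2 was the lower of the pair for each of these genes. Without it the log2 changes were 3.29 for TSPO, 2.69 for LTI30 and 2.70 for XERO1, all still called.

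RD29A read 13.93, 14.09 and 13.94 in control stomata and 15.65 and 15.16 under drought (log2 change 1.42 ± 0.37, adjusted p 0.0303), and its dimmer probe rose 3.77-fold. The call rested on few arrays. With any 1 of the 5 arrays of this comparison left out, RD29A kept a log2 change of 1.17 to 1.66 but was no longer called (adjusted p 0.0504 to 0.237), and with slide as a block the change was 1.80 (adjusted p 0.0875).

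RAB18 read 16.85, 16.12 and 16.69 in control stomata and 17.31 and 16.80 under drought, so the groups overlapped (log2 change 0.50, 95% interval -0.24 to 1.25). RD20 read 13.96, 14.04 and 13.77 in controls and 13.74 and 13.25 under drought, the only member with a lower mean under drought in this comparison (-0.43, adjusted p 0.185). RD29B read 8.46, 8.68 and 9.08 in controls and 10.28 and 9.19 under drought. Its droughted values stood above the controls and the change of 0.99 ± 0.46 was not called (adjusted p 0.211). COR47 (0.39), ERD10 (0.60) and ERD14 (0.31) were not called. Without the array labelled replicate 2 none of these 6 genes was called (0 of 6), with log2 changes of 0.76 for RAB18, -0.19 for RD20, 1.54 for RD29B, 0.64 for COR47, 0.96 for ERD10 and 0.76 for ERD14.

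Of the cell type markers 2 of 7 vascular markers, the sugar transporters SWEET12 (log2 change 1.95) and SWEET11 (1.18), rose with drought in Col-0 stomata, and 0 of 9 guard cell, 0 of 4 mesophyll and 0 of 6 epidermis markers were called in limma. The part of these changes in the results for the 10 genes was not tested.

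In stomata of bam1, 5 of the 10 genes rose and 0 fell (2.71% of all tested probes were called higher and 3.05% lower), with a median log2 change of 1.40 over the 10 genes and 0.03 over all tested probes. TSPO rose 14.3-fold, from 5.53 and 5.63 to 9.08 and 9.75 (adjusted p 0.000362). XERO1 rose at least 7.07-fold, from 3.16 and 2.38, neither well above background, to 5.31 and 6.05. LTI30 rose 6.24-fold, from 10.68 and 10.79 to 13.17 and 13.59. In these 3 genes the gap between the groups was wider than the spread within either.

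RD29A rose 2.79-fold, from 14.42 and 14.24 to 15.68 and 15.94 (log2 change 1.48 ± 0.41, adjusted p 0.0291). RAB18 rose 2.48-fold, from 16.32 and 15.15 to 17.17 and 16.92 (1.31 ± 0.38, adjusted p 0.0372). Both calls were close to the threshold: RD29A was not called with any 1 of the 4 arrays left out, and RAB18 was not called without drought replicate 1, drought replicate 2 or control replicate 2. Under slide as a block the log2 changes were 0.92 for RD29A (adjusted p 0.41) and 0.74 for RAB18 (adjusted p 0.371). No slide held both groups of either stomatal drought comparison. SWEET12 (1.69) and SWEET11 (1.04) rose in bam1 stomata and XCP1 fell (-1.12), 3 of the 7 vascular markers, and their part was not tested.

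RD29B in bam1 stomata read 7.96 and 9.82 in controls and 10.47 and 10.47 under drought (1.58 ± 0.50, adjusted p 0.0536). The pair of controls was wide: without control replicate 2, the array whose BAM1 signal of 9.71 was the highest of all bam1 arrays, the change was 2.51 and was called (adjusted p 0.00818). ERD10 changed by 0.82 ± 0.25, past the p threshold (adjusted p 0.0449) and under 2-fold. RD20 read 13.35 and 12.76 in controls and 13.23 and 12.96 under drought, with a log2 change of 0.04 (95% interval -0.40 to 0.48).

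**Figure D2:**
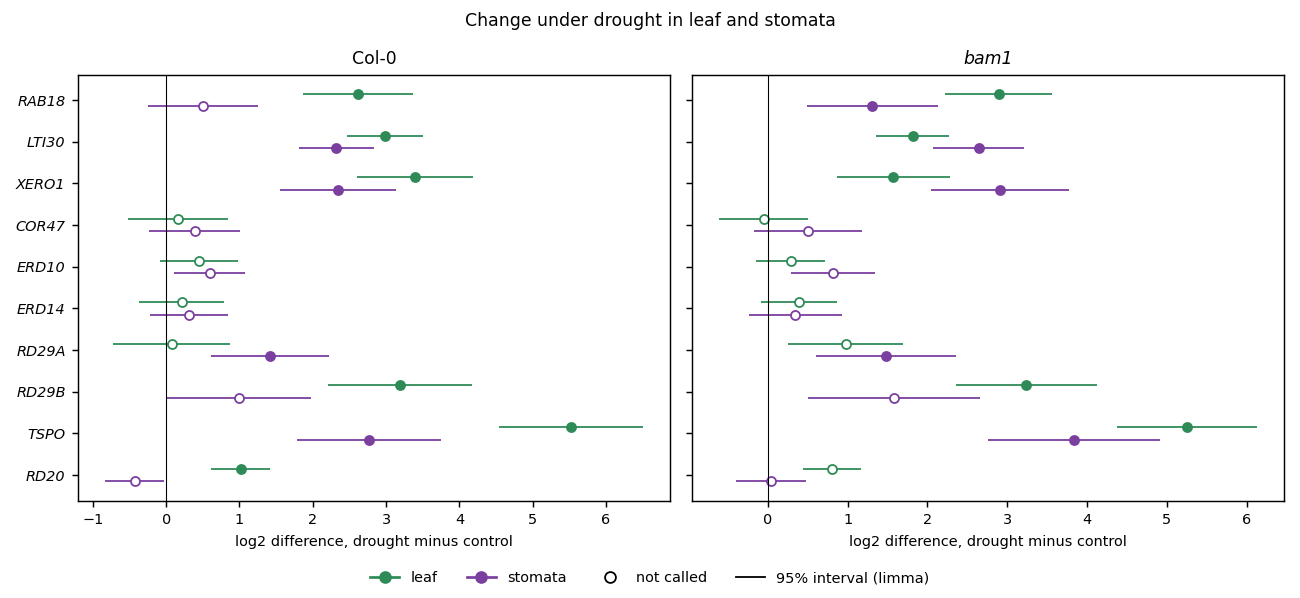
Log2 difference between drought and control for the brightest probe of each gene in leaf and stomata of Col-0 (left) and bam1 (right), with 95% intervals from limma and filled points where the change was called. TSPO, XERO1 and LTI30 were called in all 4 comparisons, and RAB18, RD29B, TSPO and RD20 had the larger estimate in leaf in both genotypes.

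The difference between the drought response of stomata and that of leaves was tested directly. In Col-0 it was called for 3 of the 10 genes, all with the smaller response in stomata, where 0.477% of all tested probes were called in that direction and 1.04% in the other. TSPO differed by -2.76 ± 0.65 on the log2 scale (adjusted p 0.0447), RAB18 by -2.11 ± 0.50 (adjusted p 0.0446) and RD20 by -1.44 ± 0.27 (adjusted p 0.0172). These values are for the brightest probes, and another bright RAB18 probe, described below, rose no less in stomata than in leaves. RD29B had a difference of similar size, -2.19 ± 0.65, that did not pass (adjusted p 0.0918). RD29A was the member with the largest difference towards stomata, 1.35 ± 0.53 (adjusted p 0.193).

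LTI30 (-0.66, 95% interval -1.39 to 0.07), COR47 (0.23, -0.70 to 1.15), ERD10 (0.15, -0.57 to 0.86) and ERD14 (0.10, -0.68 to 0.89) were not called, and neither was XERO1 (-1.05, -2.16 to 0.07). The 3 calls were close to the threshold and did not hold under every setting. Without the droughted Col-0 array labelled replicate 2, RD20 alone was called (-1.20, adjusted p 0.0496), while TSPO (-2.24, adjusted p 0.116) and RAB18 (-1.85, adjusted p 0.108) were not. None was called without leaf Col-0 drought replicate 1 (0 of 10) or with slide as a block (0 of 10). Of all probes called in this comparison 68.6% had the larger response in stomata, 51.6% after scaling by the 75th percentile and 56.3% after normexp background correction.

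The same difference in bam1 was called for 0 of the 10 genes in limma, and 6 of the 10 passed an unadjusted p of 0.05. Of all tested probes 0.0685% were called in either direction and 9.33% passed the unadjusted p. RAB18 had the lowest adjusted p, with -1.58 ± 0.50 (adjusted p 0.289). TSPO (-1.42), RD29B (-1.66) and RD20 (-0.76) had the same sign as in Col-0, and XERO1 (1.34) and LTI30 (0.83) the opposite one. Without stomata bam1 control replicate 1, RD29B was called (-2.59, adjusted p 0.0423).

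Without drought the 10 genes fell into contrasting groups between tissues. In Col-0, stomata exceeded leaves in RAB18 by 6.93-fold, in RD20 by 2.73-fold and in TSPO by 2.59-fold, and leaves exceeded stomata in RD29A by 7.74-fold, in ERD10 by 2.63-fold and in COR47 by 2.42-fold. Thus 3 members were called higher and 3 lower in stomata, where 24.4% of all tested probes were called in either direction, 11.9% higher and 12.5% lower. This control comparison shares its arrays with the difference of responses above, so the 2 results for RAB18, TSPO and RD20 are not independent of each other. With arrays scaled by the 75th percentile, 59.0% of all called probes were higher in stomata, against 48.7% here.

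RAB18 read 16.85, 16.12 and 16.69 in control stomata against 13.91, 13.83 and 13.53 in control leaves (log2 difference 2.79 ± 0.31, adjusted p 5.07e-06). The control stomatal arrays of Col-0 thus lay between the droughted leaves of 15.80 and 16.94, and under drought the tissues overlapped (0.68, adjusted p 0.171). RD20 likewise read 13.96, 14.04 and 13.77 in control stomata, above both droughted leaves at 13.49 (log2 difference in controls 1.45 ± 0.17, adjusted p 7.09e-06), and under drought the tissues differed by 0.00 (95% interval -0.44 to 0.44).

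The excess of RAB18 was seen on 3 of its 4 probes, with log2 differences of 2.28 to 2.79. The other probe, also bright, gave -0.70 (adjusted p 0.00558) and departed from its companions under drought too, with changes of 0.91 in leaves and 1.13 in stomata of Col-0, the latter called. Which transcripts this probe reads was not tested. TSPO read 7.34, 6.14 and 5.59 in control stomata and 4.73, 5.03 and 5.19 in control leaves (1.37 ± 0.41, adjusted p 0.0114). Its call rested on 1 probe and on stomata Col-0 control replicate 1, since the other probe gave 0.39 (adjusted p 0.344) and the difference without that array was 0.88 (adjusted p 0.0648).

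RD29A stood at 13.93, 14.09 and 13.94 in control stomata and 16.87, 17.49 and 16.46 in control leaves (log2 difference -2.95 ± 0.34, adjusted p 5.68e-06), and its dimmer probe differed by 27.3-fold in the same direction. Its droughted stomata, at 15.65 and 15.16, remained below every control leaf. COR47 read 15.95, 16.00 and 15.87 in control stomata, below the control leaves at 17.23 and 17.20, and its dimmer probes differed by 7.19-fold and 11.7-fold. ERD10 read 15.44, 15.41 and 15.29 in control stomata and 16.80 and 16.75 in control leaves. ERD14 was not called on its brightest probe (-0.50, adjusted p 0.102), whereas 4 of its 5 dimmer probes were called lower in stomata, by 2.14-fold to 2.68-fold. In these 4 genes the dimmer probes gave the larger differences.

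LTI30 was lower in control stomata by 0.75 on the log2 scale (adjusted p 0.00887), under 2-fold. RD29B did not differ in a detectable way (0.05, 95% interval -0.82 to 0.93), and XERO1 was not well above background in either tissue. On the slide that held both tissues of control Col-0, the within-slide log2 differences were 2.94 for RAB18, 2.61 for TSPO, 1.43 for RD20, -1.28 for COR47, -1.36 for ERD10 and -2.94 for RD29A.

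The cell type markers moved with this comparison. In Col-0 controls 9 of 9 guard cell markers were called higher in stomata (median log2 difference 3.21), as were 1 of 6 epidermis markers (CER6, with a list median of 0.89) and 2 of 7 vascular markers, SUC2 and APL. Another 2 vascular markers, SWEET12 and XCP1, were called lower, and 0 of 4 mesophyll markers were called (list median 0.11). In Col-0 controls RAB18, TSPO and RD20 had the direction of the guard cell markers. In bam1 controls 8 of 9 guard cell markers were called higher (list median 2.47), and RAB18 alone of the 10 genes was. In droughted bam1 8 of 9 were called higher in stomata (2.53), and 0 of the 10 genes were. The part of cell composition and of the peel preparation in these differences was not tested.

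**Figure D3:**
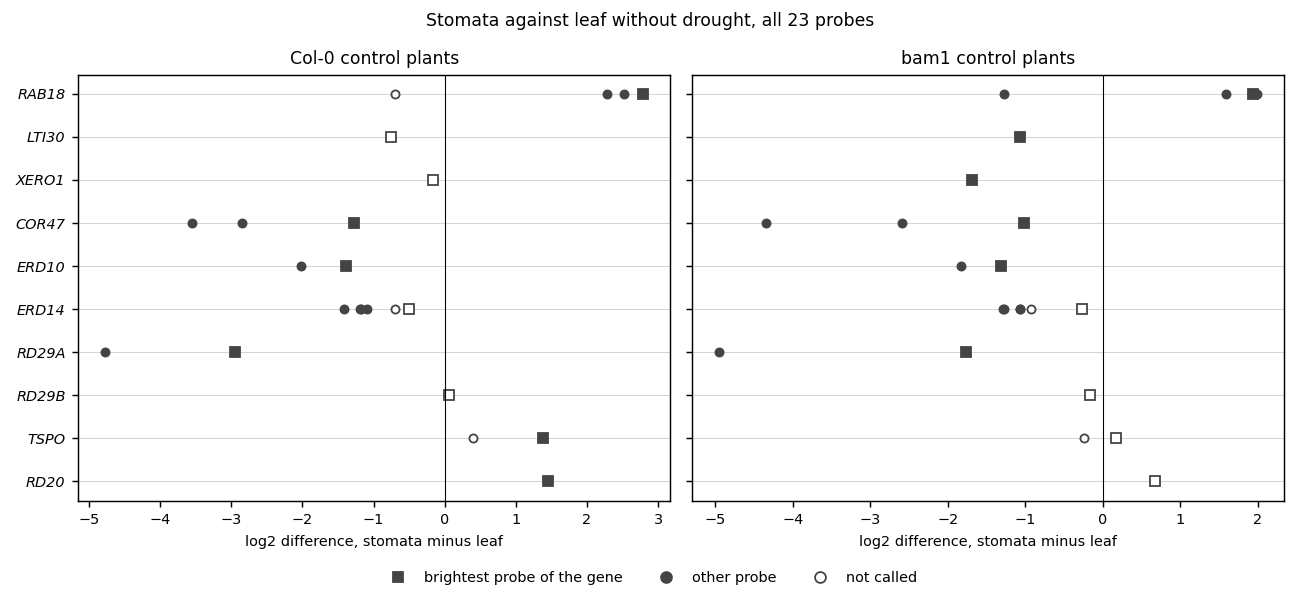
Log2 difference between stomata and leaf in control plants of Col-0 (left) and bam1 (right) for all 23 probes, with squares for the brightest probe of a gene and filled symbols where the difference was called. RAB18 lay to the right of 0 on 3 of 4 probes in both genotypes, and COR47, ERD10, ERD14 and RD29A lay to the left on every probe.

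In control plants of bam1, stomata exceeded leaves in RAB18 by 3.85-fold, and 5 members were lower in stomata, namely RD29A (3.41-fold), XERO1 (at least 3.03-fold), ERD10 (2.48-fold), LTI30 (2.09-fold) and COR47 (2.03-fold). Of all tested probes 22% were called, 11% in each direction. RAB18 read 16.32 and 15.15 in stomata and 13.94, 13.94 and 13.48 in leaves (log2 difference 1.95 ± 0.35, adjusted p 0.000453). RD20 was higher in stomata by 0.68 (adjusted p 0.00924), under 2-fold, and TSPO did not differ in a detectable way (0.18, 95% interval -0.81 to 1.16). Without leaf bam1 control replicate 3 neither LTI30 (-0.96) nor COR47 (-0.87) was called, and likewise LTI30 without leaf bam1 control replicate 2 (-0.95) and COR47 without stomata bam1 control replicate 2 (-0.91). XERO1, near background in both tissues, was not called with 75th percentile scaling (-1.06, adjusted p 0.0509) or normexp (-0.25, adjusted p 0.168).

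Under drought 0 of the 10 genes were called higher in stomata of either genotype. In Col-0 7 were called lower: RD29B (4.40-fold), RD29A (3.04-fold), LTI30 (2.67-fold), TSPO (2.62-fold), ERD10 (2.37-fold), XERO1 (2.31-fold) and COR47 (2.07-fold), where 10.7% of all tested probes were called higher and 10.5% lower. Without the droughted stomatal array labelled replicate 2 the count was 1 of 10, without leaf Col-0 drought replicate 1 it was 4, and with slide as a block 2. In bam1, RD29B (3.55-fold), RD29A (2.40-fold) and TSPO (2.38-fold) were called lower in stomata, where 12.2% of all tested probes were called higher and 10.7% lower. That count was 1 without stomata bam1 drought replicate 1.

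Between the genotypes 0 of the 10 genes were called in limma in leaves or stomata, with or without drought. Of all tested probes 0.398% were called in control leaves, 0.268% in droughted leaves, 0.0587% in control stomata and 0.0196% in droughted stomata. At an unadjusted p of 0.05 the members passing were 3, 1, 2 and 0 in that order, and 9.56%, 18.3%, 8.53% and 3.96% of all tested probes passed it. Without the array labelled replicate 2 the count in droughted stomata was again 0 of 10 in limma. RD20 in control stomata, at 13.35 and 12.76 in bam1 against 13.96, 14.04 and 13.77 in Col-0, had a log2 difference of -0.87 (adjusted p 0.130). XERO1 in control leaves differed by 1.22 (adjusted p 0.141) and LTI30 in droughted leaves by -0.65 (adjusted p 0.177). In droughted stomata the adjusted p was 1.00 for every member.

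The drought response itself was called different between genotypes for 0 of the 10 genes in leaves and 0 in stomata, where 0.00979% and 0.0163% of all tested probes were called, and 2 and 0 members passed an unadjusted p of 0.05, as did 12.2% and 5.51% of all tested probes. XERO1 in leaves had the lowest adjusted p, with a smaller response in bam1 by -1.82 ± 0.50 on the log2 scale (adjusted p 0.233), beside control values of 4.26 to 4.66 in bam1 and 2.47 to 3.68 in Col-0, of which only 1 was well above background. LTI30 in leaves followed with -1.17 ± 0.32 (adjusted p 0.234). In stomata RD20 had the lowest adjusted p (0.47, adjusted p 0.977), and the droughted array labelled replicate 2, which read BAM1 at the level of bam1, is 1 of the 2 droughted Col-0 arrays there. Without it the count in stomata was 0 of 10 in limma as well.

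Across the 20 arrays the members formed unlike patterns. The signals of LTI30 and XERO1 had a Pearson r of 0.95, and these 2 with TSPO and RD29B had r of 0.81 to 0.95 among themselves. COR47, ERD10 and RD29A had r of 0.84 to 0.91, and RAB18 and RD20 had an r of 0.81. RD20 had an r of -0.47 with both COR47 and RD29A. Arrays share tissue and treatment and are not 20 independent draws of 1 condition, so these values are descriptions only.

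**Figure D4:**
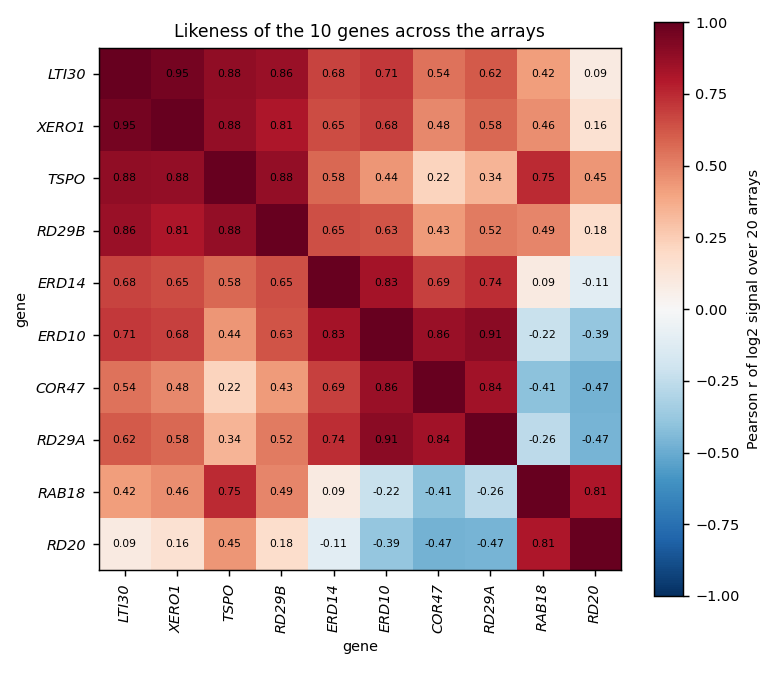
Pearson correlation of log2 signal over the 20 arrays for every pair of the 10 genes, from the brightest probe of each. The block of LTI30, XERO1, TSPO and RD29B has values of 0.81 to 0.95, and RD20 is negative with COR47 and RD29A at -0.47.

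Of 8408 named genes outside the set, those with a signal most like the mean of the 10 genes over the 20 arrays were HB-7 (r 0.96), ZW9 (0.96), FMO GS-OX4 (0.96), HIPP22 (0.94) and PGRL1B (0.93). HB-7, an ABA-induced homeobox factor, rose 6.77-fold in Col-0 leaves and 3.19-fold in Col-0 stomata, and was called in all 4 drought comparisons. HIPP22, a protein with a heavy metal-associated domain, rose at least 19.2-fold in Col-0 leaves and 18.7-fold in Col-0 stomata.

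Related genes outside the set were counted from lists. Of 4 other dehydrins 3 were tested, and 0 were called in any of the 4 drought comparisons in limma. Their median log2 change under drought was 1.72 in leaves and 0.05 in stomata of Col-0, and 0.32 and 0.48 in bam1. Of 15 other LEA and cold-regulated proteins 12 were tested, of which 5 rose in leaves and 4 in stomata in each genotype, and 0 fell. Shares of all tested probes called higher were 2.09% in leaves and 1.78% in stomata of Col-0, and 1.43% and 2.71% in bam1. Those called lower were 1.62% to 3.44% over these comparisons. DI21, a drought-induced protein, rose 7.33-fold in leaves and 8.83-fold in stomata of Col-0, and LEA14, a LEA protein, rose 2.41-fold and 2.05-fold. LEA7, a LEA protein, rose at least 27.1-fold in leaves of Col-0, whereas its change in Col-0 stomata, from a higher control level, was 2.71 on the log2 scale (adjusted p 0.103). LEA4-1 was called in all 4 drought comparisons. Of 4 other caleosins, the family of RD20, 2 were tested, and 0 were called under drought.

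Of 11 factors that bind ABRE or DRE elements 10 were tested. In Col-0 leaves 3 rose, namely the ABRE-binding ABI5 (2.91-fold), ABF3 (2.54-fold) and ABF2 (2.15-fold). In Col-0 stomata 2 rose, ABI5 (2.99-fold) and the DRE-binding DREB2B (log2 change 1.16). In bam1 2 of the 10 rose and 1 fell in leaves under drought, and 1 rose and 0 fell in stomata. ABF3, like RAB18 and RD20, stood higher in control stomata of Col-0 than in leaves, with a log2 difference of 1.75 (adjusted p 1.88e-06), and changed there by -0.07 under drought (adjusted p 0.884). In control stomata of Col-0 5 of the 10 factors were called lower than in leaves, and these, named after their values were seen, were the DRE-binding CBF1 (log2 difference -2.80), CBF2 (-1.48), CBF3 (-1.86), DREB2A (-2.16) and DREB2B (-3.02). In bam1 1 of the 10, DREB2B (-1.74), was called lower and 1 higher, with a list median of -0.23 against -1.06 in Col-0. Over all tested probes 11% were called in each direction in that bam1 comparison. Between genotypes 3 of the 10 factors were called lower in control leaves of bam1 and 0 were called in control stomata. Of all tested probes 0.398% and 0.0587% were called in those comparisons. COR47, ERD10 and RD29A were called lower in control stomata of both Col-0 and bam1. Whether they follow the levels of these factors was not tested. Of the 12 tested LEA and cold-regulated proteins 3 were called lower in control stomata of Col-0, COR15A (-2.56), COR15B (-2.90) and COR413PM1 (-1.65), and 3 were called higher. The median of that list was -0.15, and 12.5% of all tested probes were called lower and 11.9% higher.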

How the data were processed

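The deposited scanner files hold a Cy3 intensity for each spot. The background-subtracted, detrended processed signal came, per the file headers, from Feature Extraction 11.5.1.1. Other deposited columns are flags for outlying, saturated and well-above-background spots. The deposited series matrix holds log2 values that the authors normalised by quantiles and centred per probe in GeneSpring; array differences correlated with the scanner values at r of 0.986 to 1.00, its columns had medians of -0.03 to 0.03, and it served as an alternative.

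Outlier spots were set to missing. The log2 of the processed signal was quantile-normalised across the 20 arrays, and spots of a probe were averaged. A probe was tested where all arrays of some group had it well above background (30665 of 43603). Transcript identifiers matched RefSeq gene names (assembly TAIR10.1) for 34348 probes; coordinates were not used, and sequences were not analysed here. A mean per group was fitted in limma 3.58.1 (R 4.3.3, with version 1.17.8 of data.table) with eBayes, giving 12 residual and 2.43 prior degrees of freedom. P values are two-sided and Benjamini-Hochberg adjusted over all tested probes in each of 16 comparisons. Where 0 arrays of the dimmer group were well above background the fold is a lower bound, taken from means of normalised log2 values with each array of the dim group at the higher of its own signal and the lowest signal well above background on that array. On simulated data with 200 features changed by a log2 of 2 among 29325, the fit of drought in Col-0 leaves called 181, of which 177 had been changed, and that in bam1 stomata 173, of which 170 had. The simulated noise was independent and normal at each probe's own spread, without slide effects or a doubted label. It therefore checks how the fit runs and not the calls in these data.

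The 10 members and the 8 other lists were chosen with earlier results of these data known. The 8 lists are other dehydrins, other LEA and cold-regulated proteins, other caleosins, ABRE and DRE binding factors, and guard cell, mesophyll, vascular and epidermis markers. All members are named in drought comparisons; elsewhere those called or with the lowest adjusted p are, and up to 4 genes of a list, called in most drought comparisons. Other genes behind a count of 5 or fewer were named after their values were seen, and so were values of some uncalled members. Alternatives changed the scaling, the background correction (normexp with offset 50 on the median signal, as the mean signal was not used here), the source, filter, flags, probe summary, blocks for slide and replicate number, the arrays in the fit, the test and each array left out. Precision is limited by 2 or 3 arrays per group. The 6 slides were each scanned once. Figures were drawn with matplotlib 3.10.9.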

Additional observations from a re-analysis of the deposited data

Results flagged for a closer look

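In Col-0 the drought response of RAB18, TSPO and RD20 differed between tissues by the test of the difference itself. The log2 response in stomata minus that in leaves was -2.11 for RAB18 (adjusted p 0.0446), -2.76 for TSPO (adjusted p 0.0447) and -1.44 for RD20 (adjusted p 0.0172). RAB18 rose by 2.62 in leaves and had 0.50 in stomata, TSPO rose by 5.53 in leaves and by 2.77 in stomata, and RD20 rose by 1.01 in leaves and had -0.43 in stomata. RD20 was called under 16 of its 20 alternatives, RAB18 under 8 of 20 and TSPO under 8 of 19. All 3 kept their sign under every alternative run, with ranges of -2.68 to -1.46 for RAB18, -3.31 to -2.0 for TSPO and -1.69 to -1.20 for RD20. The adjusted p ranged from 0.0256 to 0.175 for RAB18, 0.0182 to 0.187 for TSPO and 0.0106 to 0.225 for RD20. None of the alternatives took a dimmer RAB18 probe alone. A bright one of these had Col-0 means of 14.15 in control and 15.06 in droughted leaves. Its stomatal means were 13.44 and 14.57, so its rise was not smaller in stomata. The remaining RAB18 probes rose less in stomata than in leaves of Col-0.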

How the results depend on the processing

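Of 1424 alternative values for single genes 1278 kept their direction and side of the threshold, 98 lost the call, 7 gained one and 41 changed sign, all 41 without a call. Except where stated, the cause of a change was not tested.

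The number of members called under drought in bam1 stomata, 5 as reported, was 3 with 75th percentile scaling, 3 with slide as a block, 0 with a fit of only the compared groups and 0 by the methods' t-test after Benjamini-Hochberg adjustment. Under drought in Col-0 stomata, 4 became 2 with probes well above background on all arrays, 1 with only the groups compared and 0 by the adjusted t-test. The filter on background left XERO1 and TSPO, both called in the main fit, untested. In leaves the adjusted t-test called 0 in Col-0, and in bam1 the stricter filter, which tested fewer genes, left 3. The 3 calls of tissue by drought in Col-0 became 1 with no filter, 0 with slide as a block and 0 with only the groups compared. For stomata against leaf in droughted Col-0, 7 became 2 with slide as a block, 3 with only the groups compared, and 1 by the unadjusted and 0 by the adjusted t-test. For the same contrast in bam1, 3 became 5 under drought with the mean over probes, and 6 became 0 in controls by the adjusted t-test. Between genotypes in control leaves the unadjusted t-test called 1.

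Leaving out 1 array at a time, the counts ranged from 5 to 6 (leaf Col-0), 5 to 6 (leaf bam1), 3 to 3 (stomata Col-0) and 3 to 4 (stomata bam1) for drought, from 0 to 2 (Col-0) and 0 to 1 (bam1) for tissue by drought, from 5 to 6 (Col-0 control), 4 to 6 (bam1 control), 1 to 7 (Col-0 drought) and 1 to 4 (bam1 drought) for stomata against leaf, and from 0 to 1 between genotypes in control stomata. A group left with 1 array was assumed to vary like the others.

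Changes of sign were all of uncalled values. XERO1 in tissue by drought in bam1 moved farthest, from 1.34 as reported. With 75th percentile scaling COR47 under drought in bam1 leaves was 0.11, RD20 under drought in bam1 stomata -0.039 and XERO1 in stomata against leaf of control Col-0 0.34. With normexp RD29A under drought in Col-0 leaves was -0.0053, ERD10 in tissue by drought in Col-0 -0.015, XERO1 in that of bam1 -0.0094 and RD29B in control stomata against leaf of Col-0 -0.088. With slide as a block RD20 under drought in bam1 stomata was -0.045, ERD10 and ERD14 in tissue by drought in Col-0 -0.011 and -0.25, XERO1 and RD29B in control stomata against leaf of Col-0 0.15 and -0.082, and TSPO in that of bam1 -0.39. With the mean over probes COR47 under drought in bam1 leaves was 0.12, COR47 and ERD14 in tissue by drought in Col-0 -0.23 and -0.14, and TSPO in control stomata against leaf of bam1 -0.035. With 1 array left out the ranges were -0.17 to 0.35 for RD29A and -0.10 to 0.42 for COR47 (drought, leaf Col-0), -0.25 to 0.31 for COR47 (drought, leaf bam1), -0.13 to 0.76 for ERD14 (drought, stomata Col-0), -0.00038 to 0.69 for ERD14 and -0.25 to 0.33 for RD20 (drought, stomata bam1), -0.03 to 0.49 for COR47, -0.22 to 0.51 for ERD10 and -0.34 to 0.55 for ERD14 (tissue by drought, Col-0), -0.40 to 0.30 for ERD14 (tissue by drought, bam1), -0.55 to 0.059 for XERO1 and -0.21 to 0.20 for RD29B (control stomata against leaf, Col-0), and -1.10 to 0.77 for RD29B (the same, bam1).

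Replicate numbers did not pair the arrays: 5 of 27 same-numbered pairs had a correlation of deviations over 0.1 (range -0.26 to 0.16). With the replicate block, 3 members were called under drought in Col-0 stomata and 2 for tissue by drought in Col-0, RD29A (adjusted p 0.0545) and TSPO (adjusted p 0.061) losing their calls, and no other call of a member changed. Crossing the numbers, chosen after seeing the data, left 5 called under drought in bam1 stomata and 0 between genotypes in droughted stomata. With normexp the calls over all probes under drought fell to 896 from 1672 (leaf Col-0), 468 from 1043 (stomata Col-0), 745 from 1494 (leaf bam1) and 897 from 1767 (stomata bam1). XERO1, close to background, lost its calls there in leaf bam1 and both stomatal comparisons.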
